A study of Mus musculus with 108 samples.

Results

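The 200 transcripts described here are those that gained most polyA signal between the prophase-arrested oocyte and the ovulated egg in control mice. For each of 55573 mouse genes the mean CPM (gene counts scaled to a common library total) was taken over the polyA libraries of control oocytes at GV (germinal vesicle, before meiosis resumes) and of control eggs at MII (metaphase of the second meiotic division, ovulated). A total of 5394 genes had a mean of at least 20 CPM in the MII controls, and the 200 with the highest log2 ratio of MII to GV, with 1 CPM added to both means, were kept. The genes were thus selected on the polyA levels of the GV and MII controls, and the gain in those libraries is given as a description, with no test. The tests below use oocytes or libraries that did not choose them: cKO oocytes, polyA libraries of controls after 3 hours in culture, and RiboMinus libraries of either genotype.

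Each library came from 1 oocyte of a female carrying the Exosc10 oocyte-specific knockout (cKO) or of a control female (ctr). Exosc10 encodes a nuclease of the RNA exosome, which trims and degrades RNA mainly in the nucleus. The Cre driver, strain and age of the females are not given in the sources used here. PolyA libraries, made from RNA captured on oligo(dT) beads, held 7 ctr and 15 cKO oocytes at GV (2 females each), 8 ctr and 11 cKO oocytes after 3 hours in culture (GV3h, 3 females each), and 8 ctr and 15 cKO eggs at MII (3 females each). RiboMinus libraries, depleted of ribosomal RNA and primed with random hexamers, held 8 ctr and 7 cKO oocytes at GV (2 females each), and 3 ctr eggs of 1 female and 4 cKO eggs of 2 females at MII. GV and GV3h oocytes were handled in M2 medium outside the body, whereas MII eggs were dissected from the oviduct, so maturation and route of collection move together. No spike-in lines were in the gene files, so each level is relative to the other RNA of its library, and the RNA content of an oocyte as a whole was not measured. Exosc10 had 0 to 5.22 CPM in cKO and 38.5 to 139 CPM in control polyA libraries, and 0.431 to 8.49 CPM and 78.7 to 154 CPM in RiboMinus libraries, as the labels say. The gene counts per library were 4638718 to 8735914 in polyA and 12319658 to 62675760 in RiboMinus libraries.

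A growing mouse oocyte stores many mRNAs with short polyA tails that are translated little. When meiosis resumes, the protein CPEB1 on a U-rich cytoplasmic polyadenylation element (CPE, UUUUAU or UUUUAAU) near the polyadenylation signal (AAUAAA or AUUAAA) brings about lengthening of the tail, and the mRNA is translated, while many other maternal mRNAs lose their tails and are degraded. Oligo(dT) capture depends on a tail as well as on the amount of an RNA, whereas random priming of RiboMinus RNA does not need a tail. The same transcripts were therefore read in both kinds of library.

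A search for a CPE and a polyadenylation signal together in a window of 30 bases within the last 100 gave 51 members. It covered only protein-coding members with a 3′ untranslated region of at least 100 bases. Members on a single chromosome and windows reaching beyond the last exon were left out, so 51 is not a count over all 200. The windows below were chosen from these, as examples of such 3′ ends. They are 30 bases of the transcript strand, 5′ to 3′, written as DNA, from the last 100 bases of the annotated GENCODE M21 transcript (GRCm38, mm10), within the 3′ untranslated region. Capitals mark every CPE (TTTTAT or TTTTAAT) and polyadenylation signal (AATAAA or ATTAAA) that lies whole within the window. All but Cnot8 were among the first 20 in the order, of which the other 14 gave no such window, and Cnot8 came from the list of mRNA decay factors. The window of Omt2b lay at chr9:78329560-78329589 (+ strand), of Omt2a at chr9:78312011-78312040 (- strand), of Tgds at chr14:118112487-118112516 (- strand), of Cnot8 at chr11:58118552-58118581 (+ strand), of Tmem128 at chr5:38269598-38269627 (+ strand), of Sirt4 at chr5:115478010-115478039 (- strand) and of Kdelr2 at chr5:143421872-143421901 (+ strand).
Omt2b: ttaacggTTTTATAATAAATAAAagtttca
Omt2a: ttaacggTTTTATAATAAATAAAagtttca
Tgds: caatataTTTTAATatATTAAAtgcagatt
Cnot8: tatgtTTTTAATtttgtaaAATAAAgattg
Tmem128: taacatcAATAAAatatTTTTATaattttc
Sirt4: ccaaatAATAAAttatTTTTAATagcataa
Kdelr2: taacatcctaAATAAAcaTTTTATTAAAca
In Omt2b, Omt2a, Tgds and Cnot8 the CPE came before the signal, which in Omt2b and Omt2a was present as overlapping copies right after it. In Tmem128 and Sirt4 the CPE came after the signal. In Kdelr2 it lay between AATAAA and ATTAAA and shared bases with the latter. The windows of Omt2a and Omt2b, neighbouring genes named for oocyte maturation, were identical, so counts may be split between them and each value is uncertain. A match of letters is a description of the annotation and not a measured binding site.

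Summed levels of marker genes of other cell types differed between the RiboMinus MII eggs. The summed level of 6 oviduct epithelium markers was 85.3 and 83.7 CPM in the eggs of V1166, and 19.05 and 8.10 CPM in those of V1167, against 1.27 to 2.34 CPM in the 3 control eggs, in which Krt8, Krt18 and Pax8 were at 0; in the cKO eggs 0 of the 6 were at 0 throughout. The 5 blood markers summed to 13.4, 0.435, 0 and 0.524 CPM in the cKO eggs and 0 in the control eggs, and the 16 cumulus and granulosa markers to 79.9 to 127 CPM and 134 to 154 CPM. None of the 200 is on a marker list, and all 12 oocyte markers were detected in every group. In polyA libraries the oviduct sum ran from 0.135 CPM in an MII control to 26.6 CPM in a GV3h cKO oocyte. The cumulus and granulosa sum ran from 65.2 CPM (polyA GV3h cKO) to 232 CPM (RiboMinus GV cKO) over all groups. Whether these levels came from other cells, and their part in the RiboMinus results below, was not tested.

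In the control polyA libraries the 200 transcripts stood at a median log2 change of 1.91 from GV to MII (1.68 to 2.94; TMM-scaled edgeR estimates), beside -0.08 over all genes tested. Their share of all gene counts was 3.69% to 4.43% in the GV controls (median 3.97%), 3.75% to 4.54% in the GV3h controls and 10.1% to 14.2% in the MII controls (median 12.02%). By the log2 ratio of means used to choose them, the last members were Gnb2 (1.311), Gm16796 (1.309) and Carmil1 (1.305), and the first genes left out were Zfp513 (1.305), Gli3 (1.305) and Taok3 (1.303). The members nearest the minimum level were Prr32 (21.8 CPM at MII), AC141429.2 (22.3 CPM) and Isl1 (22.5 CPM). Of the 200, 185 were protein coding, 8 were long intergenic RNAs, 4 were antisense RNAs and the rest were of other types. Counted by chromosome, 5 were encoded in the mitochondrial genome, a count that overlaps these types.

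The cKO eggs gained the same transcripts. In cKO polyA libraries 195 of the 200 rose from GV to MII and 0 fell, in a comparison in which 33.1% of 13217 genes tested were called higher and 41.7% lower (edgeR quasi-likelihood test, Benjamini-Hochberg adjusted p under 0.05). The median log2 change of the 200 was 1.77 (quartiles 1.48 and 2.005), beside -0.17 over all genes tested, and all 200 estimates were positive. Their share of gene counts was 3.02% to 4.96% in the 15 cKO GV oocytes (median 4.45%) and 8.79% to 12.04% in the 15 cKO MII eggs (median 11.2%), so no GV oocyte reached the level of any MII egg. For 122 of the 200 every cKO MII egg lay above every cKO GV oocyte, which held for 4.67% of all genes tested. With counts summed per female, the replicate that oocytes of the same female share, 184 of the 200 were called higher. Over the 6 pairings of a cKO GV female with a cKO MII female, 186 to 198 of the 200 had a higher mean CPM at MII. Without TMM scaling, on library totals, the medians were 1.32 for the 200 and -0.62 for all genes, with 190 called higher and 1, Gnb2, lower. The 33.1% and 41.7% belong to the main fit. Shares of all genes for the female sums, the pairings and library totals are not given here.

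**Figure D1:**
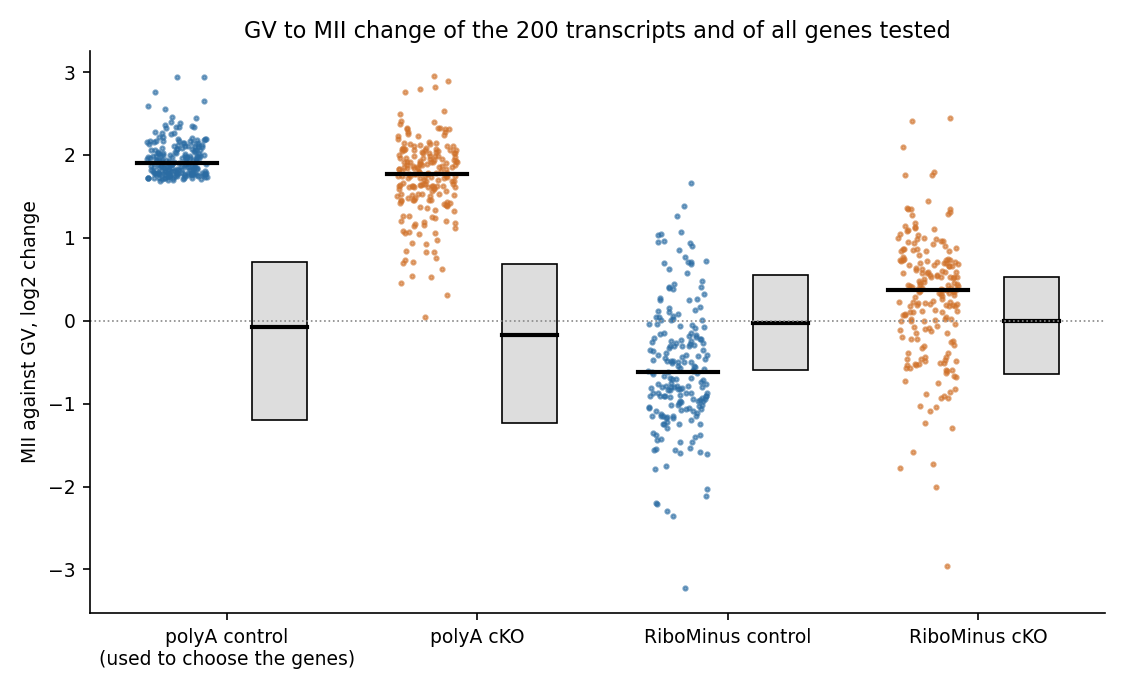
GV to MII log2 change (vertical axis) of the 200 transcripts (points, black line at the median) in each library type and genotype, beside all genes tested (grey box from quartile to quartile, black line at the median). The points sit near 1.91 and 1.77 in the polyA libraries of control and cKO oocytes, and near -0.62 and 0.37 in the RiboMinus libraries.

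The other 5 members missed the threshold in cKO eggs. They were Gnb2, a G protein beta subunit (log2 change 0.05, SE 0.16), Ppp5c, a serine/threonine phosphatase (0.31, SE 0.21), Socs1, a suppressor of cytokine signalling (0.45, SE 0.23), Hmgn3, a nucleosome-binding protein (0.53, SE 0.26) and Tbpl1, related to the TATA-binding protein (0.63, SE 0.33), with edgeR adjusted p-values from 0.0649 for Hmgn3 to 0.795 for Gnb2. Hmgn3, first in the control order, had 0.465 to 1.38 CPM in the 3 polyA GV controls of female V856 and 19.6 to 23.9 CPM in the 4 of female V889, so its place in the order rested on 1 female. The cKO GV oocytes held 27.2 to 63.8 CPM of Hmgn3 and the cKO MII eggs 1.45 to 64.4 CPM, and these ranges overlapped.

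**Figure D2:**
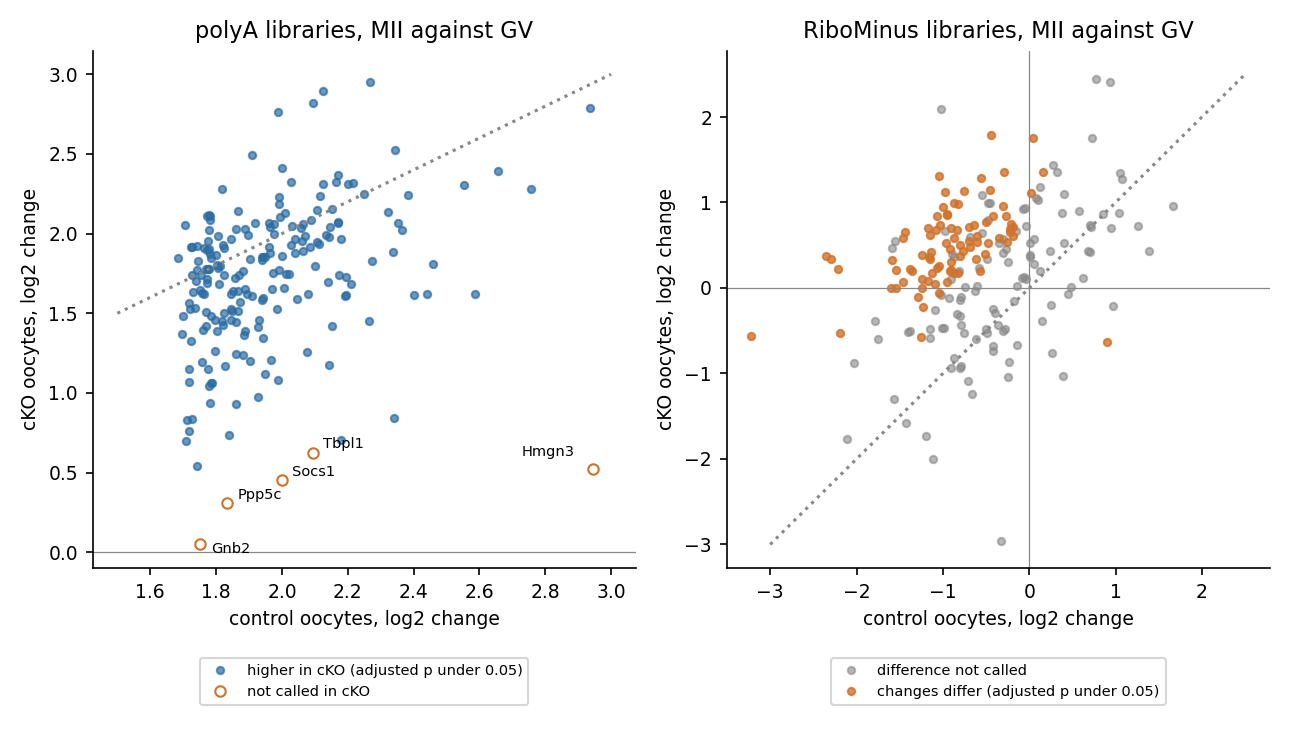
Log2 change from GV to MII in control oocytes (horizontal axis) against cKO oocytes (vertical axis), 1 point per transcript, for polyA libraries (left) and RiboMinus libraries (right); the dotted line marks equal change. On the left the 5 open circles are the transcripts not called in cKO oocytes, and on the right the orange points are the 84 transcripts with a more positive and the 1 with a more negative RiboMinus change in cKO oocytes.

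Cell cycle regulators stood among the members. Cdc20, the activator of the anaphase-promoting complex, had 47.8 to 142 CPM in cKO GV polyA libraries (median 105) and 209 to 473 CPM in cKO MII polyA libraries (median 335). These ranges were apart, and the log2 change was 2.23 (SE 0.13, edgeR adjusted p = 1.71e-16). Mad2l1, the spindle checkpoint protein that restrains Cdc20, had 160 to 248 CPM at GV and 496 to 816 CPM at MII (log2 change 2.05, SE 0.09, edgeR adjusted p = 4.66e-20). Gmnn, the inhibitor of replication licensing, had 87.9 to 174 CPM at GV and 278 to 518 CPM at MII, a rise of 2.03 on the log2 scale (SE 0.10). Anapc10, a subunit of the same complex (1.98), Cks1b, which binds cyclin-dependent kinases (1.94), and Cenpa, the centromeric histone H3 variant (1.64), rose too. These 3 genes were picked for mention after their values were seen.

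Members on the lists of mRNA decay genes (Btg4 and Cnot8) and of mRNAs known for tail lengthening (Btg4, Slbp, Hprt and Tex19.1) were read next. Btg4, the adaptor that brings the CCR4-NOT deadenylase to maternal mRNAs, had 595 to 1543 CPM in cKO GV polyA libraries (median 1117) and 1683 to 2912 CPM in cKO MII polyA libraries (median 2469), with no overlap (log2 change 1.59, SE 0.12). In control polyA libraries its levels were 1327 to 1791 CPM at GV and 3845 to 5862 CPM at MII; these control values chose the genes, so they are not set against the cKO levels. Cnot8, a catalytic subunit of that deadenylase, had 118 to 242 CPM at GV and 488 to 702 CPM at MII in cKO oocytes (log2 change 2.15, SE 0.11). Slbp, which binds the stem-loop of histone mRNAs and whose tail is known to lengthen in maturation, had 460 to 774 CPM at GV and 1346 to 2087 CPM at MII (log2 change 1.96, SE 0.10). Hprt, the purine salvage enzyme whose mRNA is a classic example of tail lengthening in mouse oocytes, had 53.0 to 113 CPM and 206 to 330 CPM (log2 change 2.08, SE 0.11). In these 4 genes no cKO GV oocyte reached a cKO MII egg. Tex19.1, a germ-line protein of genome defence, rose by less, 0.97 on the log2 scale (SE 0.12), from 113 to 342 CPM at GV to 218 to 390 CPM at MII, with overlap.

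Several other members are known from oocytes, although none of the 200 is among the 12 oocyte markers, of which 5 were higher and 7 lower at MII in cKO polyA libraries (median -1.09). Omt2b had 369 to 769 CPM in cKO GV and 1415 to 2781 CPM in cKO MII polyA libraries (log2 change 2.39, SE 0.12, edgeR adjusted p = 4.61e-18), and Omt2a rose by 2.24. The 6 members of the Tcl1 family (Tcl1 and Tcl1b1 to Tcl1b5), a cluster of related genes of which Tcl1 is known as a cofactor of the Akt kinase, rose by 1.97 to 2.32; reads can be shared among such copies, so the single values are uncertain. H1foo, the oocyte linker histone (1.80), Bcl2l10, a Bcl-2 family protein of oocytes (2.03), Obox5, an oocyte homeobox gene (1.92), and Oas1d, an oocyte relative of the oligoadenylate synthetases (1.72), were also higher at MII in cKO polyA libraries. The Tcl1 relatives other than Tcl1b3, and the 4 genes just named, were picked for mention after their values were seen. The largest cKO changes were those of Tmem128, a transmembrane protein (2.95, SE 0.18), and the uncharacterised Gm11381 (2.90, SE 0.28).

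The RiboMinus libraries of control oocytes did not show this gain. Of the 200, 100 were lower at MII than at GV and 14 were higher, beside 15.8% of 16340 genes tested called lower and 15.0% called higher (edgeR, adjusted p under 0.05). Their median log2 change was -0.62 (quartiles -1.02 and -0.14), beside -0.03 over all genes tested. For 90 of the 200 every MII control lay below every GV control, beside 13.0% of all genes tested, and for 10 every MII control lay above, beside 10.2%. Since all MII controls came from 1 female, stage and female cannot be told apart here. With counts summed per female, 102 were lower and 16 higher; the MII arm is then 1 sample, which is assumed to vary like the 2 GV females.

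Cdc20 had the deepest fall among the 200 in control RiboMinus libraries. It had 40.7 to 74.9 CPM in the 8 GV controls, and 7.95, 6.53 and 4.21 CPM in the 3 MII controls, all far below GV (log2 change -3.22, SE 0.26, edgeR adjusted p = 2.65e-08). Exons of Cdc20 overlap Elovl1 on the other strand, and the strand setting of the counting is not given in the sources used here, so reads of such pairs cannot be told apart. Tgds, an enzyme related to the nucleotide-sugar dehydratases, had 108 to 155 CPM at GV, and 46.7, 49.1 and 37.9 CPM at MII (-1.47, SE 0.15); its exons overlap the antisense member Gm26773. Cnot8 had 77.8 to 116 CPM at GV, and 50.5, 37.2 and 46.5 CPM at MII (-1.09, SE 0.16). Gmnn (-1.15), Mad2l1 (-0.95), Slbp (-0.83), Tex19.1 (-1.75), H1foo (-1.59) and all 6 Tcl1 genes (-0.95 to -1.18) were lower too. Btg4 (-0.27) and Hprt (-0.30) did not pass the test.

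The 14 members higher in the control RiboMinus libraries included Psmd1, a base subunit of the proteasome's regulatory particle (0.70), Sycp3 of the synaptonemal complex (1.66), Magohb of the exon junction complex (1.38), Nfkbia, an inhibitor of NF-kappaB (0.90), and the mitochondrially encoded mt-Nd2 (0.93) and mt-Cytb (1.05), subunits of the respiratory chain. Sycp3, Magohb and Nfkbia were picked for mention after their values were seen. All 14 also rose in the polyA libraries of cKO oocytes, beside 5.42% of 12978 genes tested in both comparisons. Since nearly all members rose there, the 97 that rose and were lower in control RiboMinus libraries, beside 8.57% of those genes, largely repeat the 100 lower calls. Psmd3, another subunit of the regulatory particle, rose by 1.62 in cKO polyA libraries and was lower in control RiboMinus libraries (-1.46).

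In the RiboMinus libraries of cKO oocytes the same transcripts were spread on either side of zero. A total of 38 were higher and 10 lower at MII than at GV, beside 7.4% of 17234 genes tested called higher and 8.67% called lower (edgeR, adjusted p under 0.05), and 152 were not called. A member not called is not shown to be unchanged: the median SE of a log2 change over the 200 was 0.27 here, 0.21 in control RiboMinus libraries and 0.13 in cKO polyA libraries, so the counts of calls are not compared between these fits. The median log2 change was 0.37 (quartiles -0.14 and 0.72), beside 0.00 over all genes tested. Every MII egg lay above every GV oocyte for 23 members, beside 5.53% of all genes, and below for 8, beside 5.9%. These calls depended on how females were handled. With counts summed per female 0 members were called in either direction (42 had an unadjusted p under 0.05). The share of all genes called in that fit is not given here, so the 0 cannot be set against other genes. Omission of 1 female gave 0 higher without V1131, 6 without V1166 and 67 without V1126. Leaving out 1 MII egg gave 17 higher without V1166_1, 18 without V1166_2 and 24 without V1167_1. The members called lower numbered 1 without female V1131, 3 without V1167, and 16 without V1126 or without egg V1166_2.

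The largest of the RiboMinus rises among members called in cKO eggs were those of mt-Nd1 (2.45, SE 0.40) and mt-Nd2 (2.41, SE 0.37), followed by Cobl, an actin nucleator (1.79), Tex12 of the synaptonemal complex (1.76) and mt-Nd4 (1.75). mt-Nd2 had 586 to 1794 CPM in the cKO GV oocytes, and 4342, 11762, 3421 and 3650 CPM in the cKO MII eggs. The egg at 11762 CPM, V1166_2, stood far above the others. In cKO oocytes mt-Nd2 rose about as much in the polyA libraries (2.31). In a joint fit of both library types, with its own scaling, the difference (polyA less RiboMinus) was 0.13 (SE 0.36, edgeR adjusted p = 0.796). That difference was 0.70 for mt-Cytb, 0.55 for mt-Nd4 and -0.08 for mt-Nd1, and did not pass the test in any of them. For mt-Nd5, the other mitochondrially encoded member, it passed at 0.91 (SE 0.30, edgeR adjusted p = 0.0108). Among members called lower, Ppp5c (-2.01), Fam124a (-1.77), Dtwd1 (-1.73), Rnf215 (-1.58) and Plpp5, a lipid phosphatase (-1.24), had the largest falls. In the RiboMinus libraries of both genotypes 6 members were lower, a share near the 3.29% of 15606 genes tested in both, among them Degs1, the desaturase of ceramide synthesis (-1.25 in controls and -0.57 in cKO oocytes), picked after its values were seen.

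The change between stages was tested against the library type within cKO oocytes. For 175 of the 200 the GV to MII change was more positive in polyA than in RiboMinus libraries, and for 0 it was more negative, beside 23.0% and 22.6% of 17208 genes tested (edgeR interaction term, adjusted p under 0.05). The median difference was 1.66 on the log2 scale, beside -0.08 over all genes tested. The largest among the cell cycle and mRNA decay factors were Cdc20 (3.03, SE 0.30), Gmnn (2.86, SE 0.23), Cnot8 (2.34, SE 0.22), Mad2l1 (2.21, SE 0.22) and Slbp (2.01, SE 0.25), and Btg4 had 1.37 (SE 0.26). With counts summed per female 120 of the 200 passed, on library totals 139, and without female V1166 173. The shares of all genes passing under these settings are not given here. On library totals the medians were 1.01 for the 200 and -0.73 for all genes. As a level, the median log2 ratio of mean polyA to mean RiboMinus CPM over the 200 was 0.53 at GV and 1.60 at MII in cKO oocytes, and 0.37 and 2.63 in control oocytes, of which the control polyA values chose the genes. More CPM in polyA than in RiboMinus libraries was seen for 157 of the 200 in cKO GV oocytes, beside 57.15% of all genes tested, and for 185 in cKO MII eggs, beside 32.9%; without the RiboMinus eggs of female V1166, a setting chosen after seeing the data, the MII count was 184. Members that rose in cKO RiboMinus libraries and did not pass this test, which shares those libraries, included mt-Nd1, mt-Nd2, mt-Nd4, mt-Cytb, Cobl, Tex12, and Bcl2l11, a proapoptotic Bcl-2 relative picked after its values were seen.

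**Figure D3:**
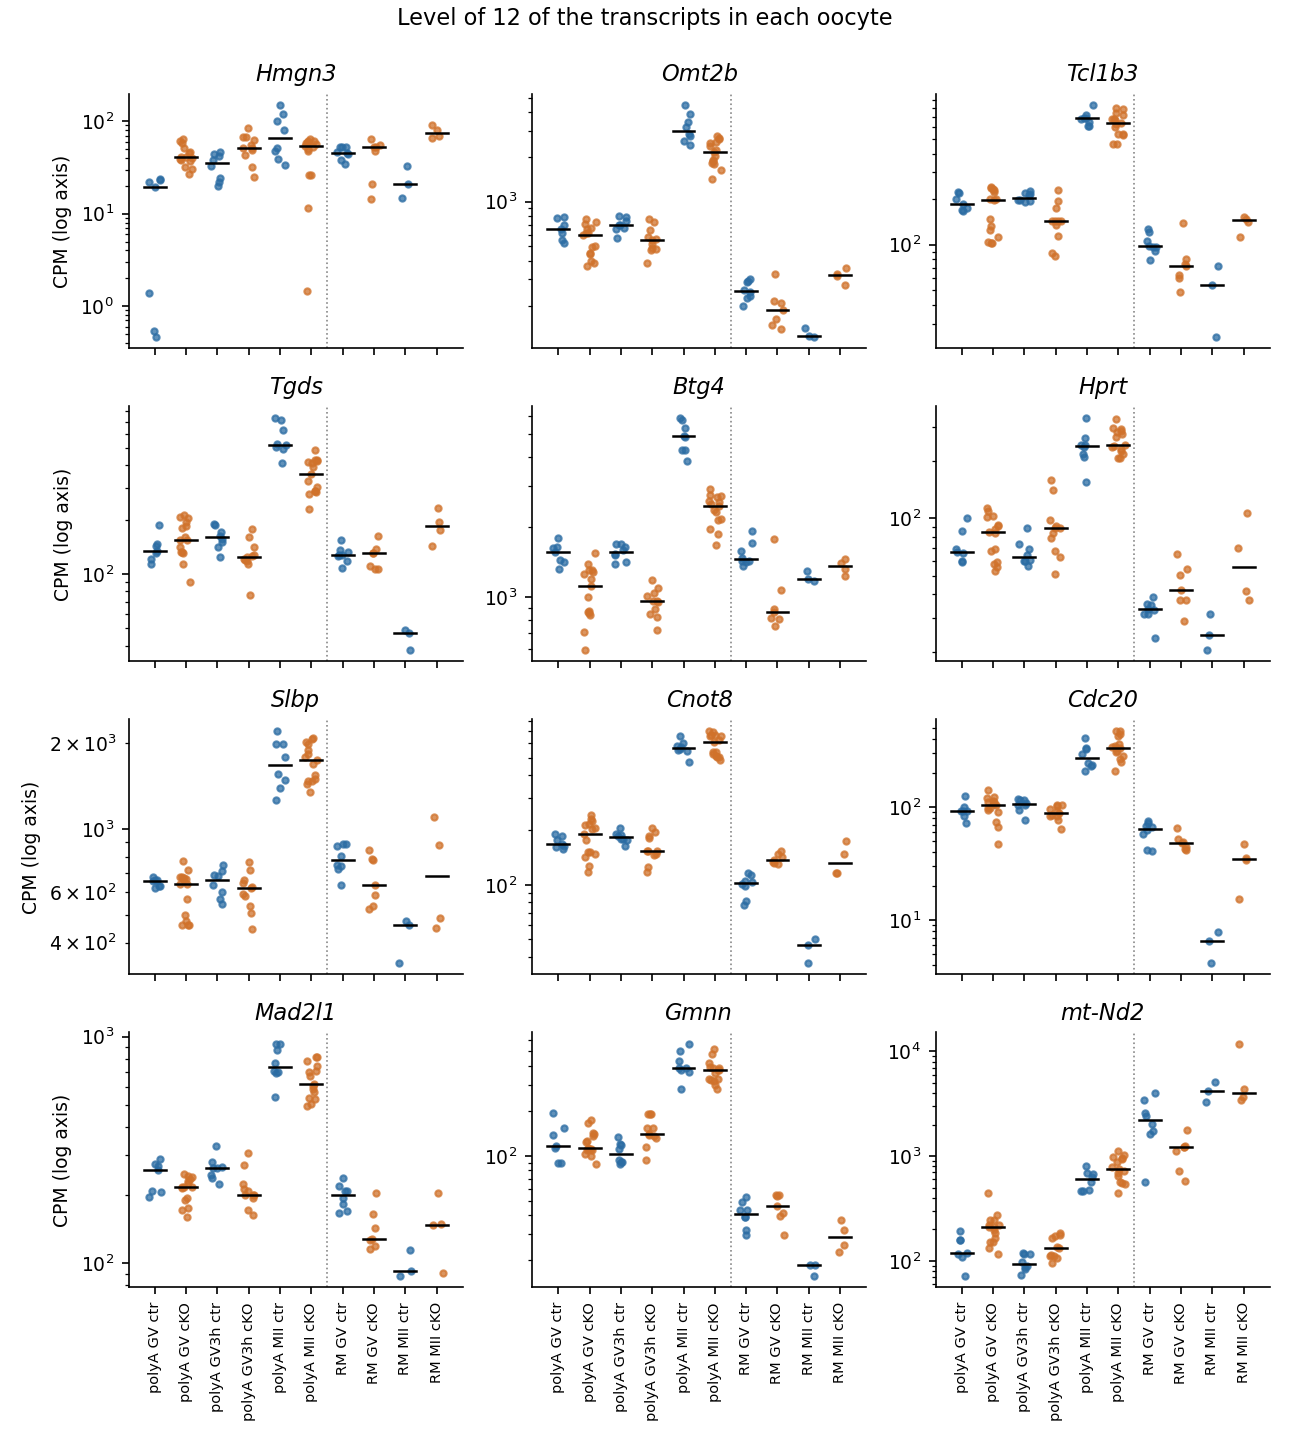
CPM on a log axis (vertical, own scale in each panel) of 12 transcripts in every oocyte, by library type (RM, RiboMinus), stage and genotype (blue, ctr; orange, cKO; black line, median). Cdc20, Cnot8 and Tgds are high in MII polyA libraries of both genotypes, and in RiboMinus libraries are lowest in the 3 MII controls.

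RiboMinus levels at MII differed between genotypes for many members. At MII 84 of the 200 were higher and 7 lower in cKO than in control eggs, beside 13.9% and 9.78% of 16675 genes tested (edgeR, adjusted p under 0.05), with a median of 0.83 beside 0.13 over all genes. Tgds had 46.7, 49.1 and 37.9 CPM in the control eggs, and 195, 144, 175 and 231 CPM in the cKO eggs (log2 difference 1.99, SE 0.24). Cdc20 had 7.95, 6.53 and 4.21 CPM in control eggs, and 15.5, 47.4, 34.0 and 35.3 CPM in cKO eggs (2.33, SE 0.44). Cnot8 had 50.5, 37.2 and 46.5 CPM in control eggs, and 148, 175, 116 and 116 CPM in cKO eggs (1.58, SE 0.26). In these 3 genes every cKO egg lay above every control egg. Omt2b had 142, 125 and 123 CPM in control eggs, and 328, 318, 355 and 274 CPM in cKO eggs (1.22, SE 0.20). Btg4 stood at 1195, 1290 and 1175 CPM in control eggs, and at 1407, 1233, 1456 and 1321 CPM in cKO eggs, with overlap (0.07, SE 0.19). Mad2l1 stood at 92.6, 88.2 and 114 CPM, and at 90.3, 205, 147 and 149 CPM, also with overlap (0.52, SE 0.27). With counts summed per female 32 of the 200 were higher and 4 lower, with the control arm reduced to 1 sample, which is assumed to vary like the 2 cKO females. Without female V1166 59 were higher and 11 lower, a comparison of the eggs of 1 female with those of 1 other.

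The change from GV to MII itself was compared between genotypes in the RiboMinus libraries. It was more positive in cKO than in control oocytes for 84 of the 200, and more negative for 1, Nfkbia (-1.54, SE 0.42), beside 7.85% and 7.0% of 19110 genes tested (edgeR interaction term, adjusted p under 0.05). The median difference was 0.94 on the log2 scale, beside 0.04 over all genes tested. Cdc20 (2.64, SE 0.37), Tgds (2.04, SE 0.24), Tcl1b3 (1.81, SE 0.39), Omt2b (1.61, SE 0.29), Cnot8 (1.13, SE 0.24) and Mad2l1 (1.01, SE 0.28) were among the 84. A set of 10 members, among them Kdelr2, the receptor that returns proteins to the endoplasmic reticulum, Omt2a, Tcl1b3 and Tgds, were lower at MII in control and higher in cKO RiboMinus libraries, beside 0.622% of 15606 genes tested in both. With counts summed per female 0 members passed (67 had an unadjusted p under 0.05), and without the 2 cKO eggs of female V1166 46 did. Female and genotype cannot be told apart at MII.

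**Figure D4:**
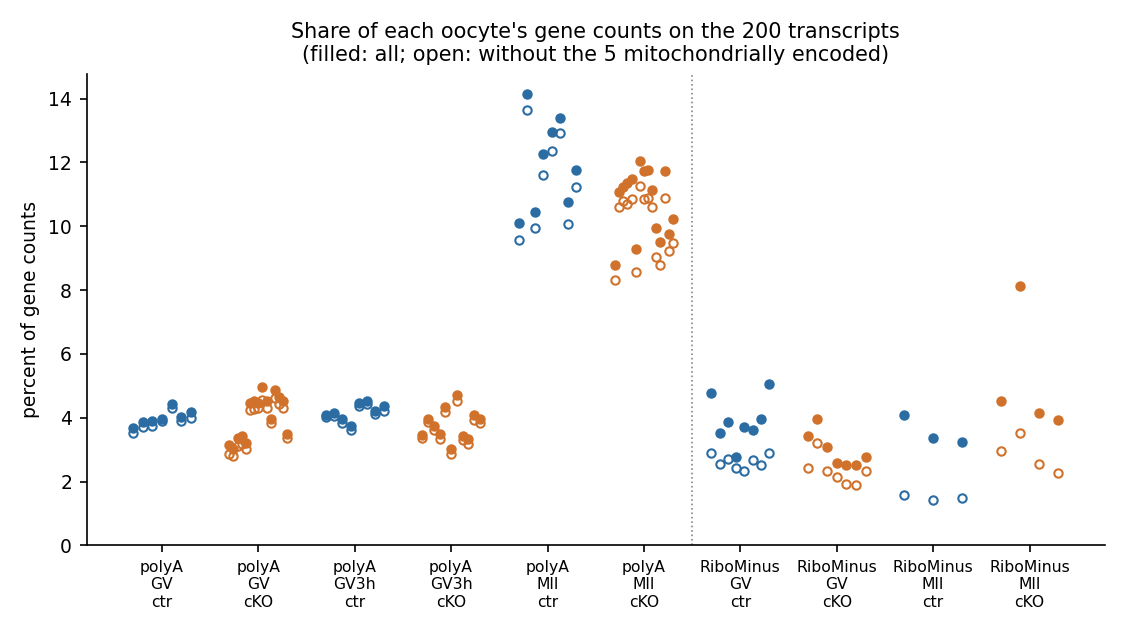
Percent of each oocyte's gene counts on the 200 transcripts (vertical axis), by library type, stage and genotype (filled circles, all 200; open circles, without the 5 mitochondrially encoded; blue, ctr; orange, cKO). The polyA MII eggs lie at 8.79% or more and all other polyA oocytes at 4.96% or less.

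The share of counts showed what the 200 made up in each RiboMinus egg. The 3 control MII eggs gave 4.07%, 3.36% and 3.25% of their gene counts to the 200, and the 4 cKO MII eggs 4.52%, 8.12%, 4.14% and 3.92%. Without the 5 mitochondrially encoded members the control eggs gave 1.58%, 1.41% and 1.495%, and the cKO eggs 2.96%, 3.53%, 2.54% and 2.28%, so that on nuclear genes every cKO egg lay above every control egg. At GV the nuclear members took 2.33% to 2.91% in control RiboMinus libraries and 1.89% to 3.20% in cKO ones, with overlap.

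No member passed as higher after 3 hours of culture in cKO oocytes. Of 199 members tested (Prr32 was too low) 0 were higher and 2 were lower, mt-Cytb and mt-Nd1, at GV3h than at GV in cKO polyA libraries, beside 0.371% and 0.231% of 14280 genes tested (edgeR, adjusted p under 0.05). At an unadjusted edgeR p under 0.05 there were 38 members in either direction, beside 1731 of the 14280 genes. With DESeq2 0 were higher and 7 lower, and the share of all genes in that fit is not given here. The median log2 change was -0.04. Leaving out 1 female gave up to 13 members higher (without V888; 9 without V857 and 2 without V983) and up to 31 lower (without V857; 10 without V983, 7 without V888 and 0 without V946 or V993). The control libraries at GV3h, which share their GV oocytes with the choice of genes, had a median of 0.10 and are described only.

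At GV3h, whose oocytes did not choose the genes, cKO and control polyA libraries differed for members in both directions. Of the 200, 42 were higher and 71 lower in cKO, beside 29.4% and 26.1% of 13622 genes tested (edgeR, adjusted p under 0.05), with a median of -0.13 beside 0.03 over all genes. On library totals 64 were higher and 50 lower, with medians of 0.04 for the 200 and 0.20 for all genes. The share of all genes called on library totals is not given here. Tmem128 (-1.68, SE 0.24), Btg4 (-0.88, SE 0.09), Tcl1b3 (-0.68, SE 0.15), Omt2b (-0.49, SE 0.11), Cdc20 (-0.40, SE 0.10) and Cnot8 (-0.36, SE 0.10) were lower, and Tex19.1 (1.54, SE 0.18), Ppp5c (1.72, SE 0.27) and Socs1 (1.59, SE 0.27) were higher. In RiboMinus libraries at GV 33 members were higher and 46 lower in cKO, beside 21.2% and 16.5% of 15347 genes tested. There Tex19.1 (1.73, SE 0.23) and Ppp5c (1.88, SE 0.33) were higher and Btg4 (-0.71, SE 0.18) and Tmem128 (-0.64, SE 0.19) lower. Lower in both comparisons were 27 members and higher in both 24, beside 13.1% and 18.0% of 13316 genes tested in both, so the lower count was near the background and the higher count under it. Cnot8 and mt-Nd4 passed in opposite directions, as 0.195% of those genes did. The RiboMinus GV calls depended on how females were handled. With counts summed per female 0 members passed (47 had an unadjusted p under 0.05). The share of all genes passing in that fit is not given here, so the 0 cannot be set against other genes. Without female V1131 there were 2 higher and 2 lower, without V1132 20 and 11, without V1133 11 and 6, and without V1126 92 lower. At polyA GV and MII, where the controls chose the genes, the cKO against control medians were 0.02 and -0.23 and are described only; 62 of the 200 estimates were positive at MII.

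Gene lists put the members beside other mRNAs of the same pathways; the list counts stand beside the 33.1% higher and 41.7% lower of all genes in this comparison, and members make up 200 of the 5394 genes at the minimum level. Of 18 mRNAs known for tail lengthening or translational activation in maturation, 4 (Hprt, Btg4, Tex19.1 and Slbp) were among the 200, and all 18 rose from GV to MII in cKO polyA libraries with a median of 1.34; others were Plat, the plasminogen activator of oocytes (1.81), and Cnot7 (1.84). The change was more positive than in RiboMinus libraries for 17 of the 18, beside 23.0% of all genes in that test. The cytoplasmic polyadenylation machinery (17 genes) had no member, with 8 higher, such as the poly(A) polymerase genes Tent2 (1.77) and Papola (1.30), and 5 lower, such as Cpeb2 (-2.17). Of 23 mRNA decay genes tested 12 were higher, among them the members Cnot8 and Btg4, and 5 lower, such as Ddx6 (-2.50) and Zfp36l2 (-1.84). Of 22 replication licensing genes 11 were higher, among them Gmnn, and 9 lower, such as Gins4 (-2.36). Of 30 meiotic cell cycle genes 18 were higher, among them Mad2l1 and Cdc20, and 6 lower, such as the kinase genes Cdk1 (-3.09) and Wee1 (-2.50).

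Other lists were counted in the same way. Of 76 cytosolic ribosomal protein genes tested 70 were lower and 1 higher at MII in cKO polyA libraries, of 84 nuclear genes of the respiratory chain and ATP synthase 74 lower and 7 higher, and of 23 replication-dependent histone genes 19 lower and 0 higher, with no member in any of these lists. Of 38 proteasome genes 26 were lower and 9 higher, with Psmd1 and Psmd3 as members. Of 278 Zfp genes 114 were lower (41%) and 66 higher (23.7%), with no member. All 11 mitochondrially encoded genes tested were higher (median 2.03), with 5 members. Predicted genes and RIKEN clones had 18 members, and 612 higher (30.2%) and 783 lower (38.7%) of 2025 tested, near the shares of all genes.

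The 3′ ends of the members were compared with those of the 5194 other genes at the same minimum level. A CPE (TTTTAT or TTTTAAT, transcript strand) stood in the last 100 annotated bases of 81 of the 176 members with a 3′ untranslated region of at least 100 bases (46.0%), of 24.3% of 4804 other genes, and of 9.41% of 170 among the 200 genes lowest in the same order. Leaving out a CPE that shared bases with a polyadenylation signal, as in TTTTAATAAA, the shares were 43.2%, 22.0% and 9.41%. The polyadenylation signal (AATAAA or ATTAAA) stood in 88.6%, 83.7% and 75.3%. The A and T content of the last 100 bases was alike in members and others (medians 68% and 67%; 61% in the lowest). Members were shorter than other genes, with a median transcript of 1918.5 bases against 3593.5, and a median 3′ untranslated region of 684.5 bases against 1291.5. Along the polyA change of cKO oocytes, in 5 equal groups of 2141 genes tested, the share with a CPE was 10.65%, 15.27%, 17.8%, 24.33% and 33.35% from the largest falls to the largest rises. The A and T content of the last 100 bases rose in the same order (medians 58%, 63%, 65%, 67% and 69%), as did the share with a polyadenylation signal, from 75.57% to 87.62%; a CPE holds only A and T, and the part of base composition in this trend was not tested. Within the 200 the cKO polyA change had the same median with and without a CPE (1.74 in 81 and 1.74 in 95). These shares describe the annotated ends, which may not be the ends used in oocytes.

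**Figure D5:**
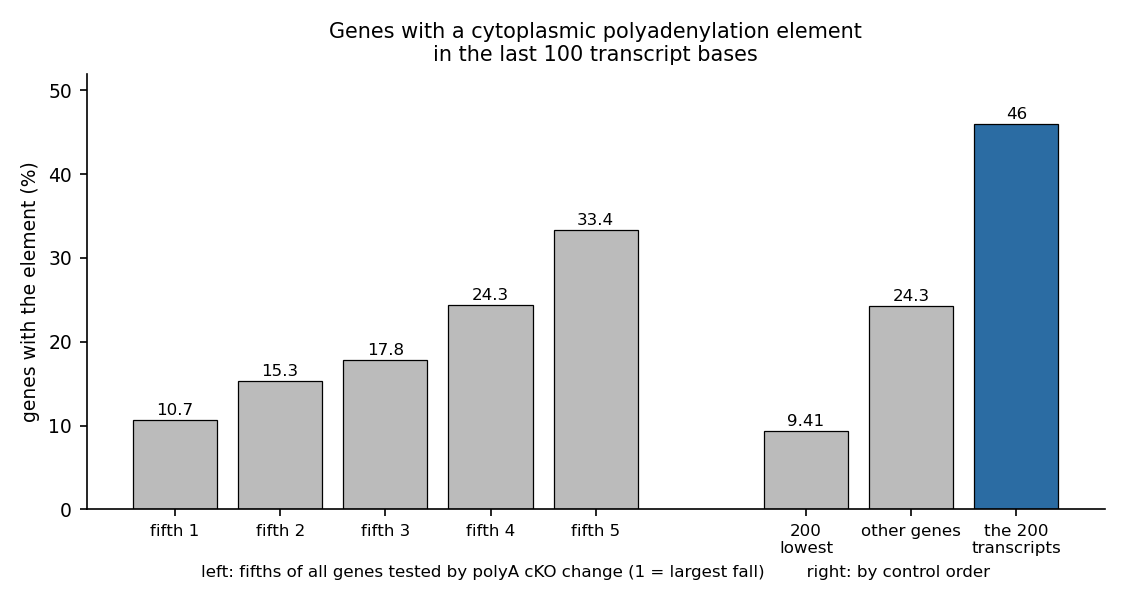
Percent of genes (vertical axis, from 0) with a cytoplasmic polyadenylation element in the last 100 transcript bases: all genes tested in 5 groups by polyA change in cKO oocytes (left), and the 200 lowest genes, the other genes and the 200 transcripts by the control order (right). The share is 10.65% in the first group, 33.35% in the last and 46.0% in the 200 transcripts.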

How the data were processed

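Single mouse oocytes were sequenced as polyA libraries (64) and RiboMinus libraries (22). The deposited files hold raw counts of reads per Ensembl gene, 1 file per library, and the authors did not normalize them. Per the submitters' processing notes the tools were cutadapt 2.5, FastQC 0.11.8, STAR 2.7.2a, SAMtools 1.9, HTSeq 0.9.1, R 3.5.1 and DESeq2 1.24.0, with mm10; parameters, the strand setting and the handling of duplicates are not given in the sources used here. Summary lines for reads outside genes (5.86% to 14.2% of all reads counted) and ambiguous reads (2.07% to 3.19%) were left out. Of 55573 gene IDs 55394 had a symbol. The rRNA segment files were not used here.

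The members, gene lists and tests were chosen with earlier results of these data known. Each comparison was fitted with edgeR 4.0.16 in R 4.3.3 on the groups compared, with filterByExpr, TMM scaling and two-sided quasi-likelihood F tests, and p-values were adjusted over all genes tested by Benjamini-Hochberg, with 0.05 as the threshold. SE is the standard error of a log2 change. The oocyte was the replicate; oocytes of a female are not independent, and females differ between stages and genotypes, so p-values measure the spread between oocytes. All 200 members passed the filter on low counts except where stated. CPM levels and shares are on library totals. Alternatives were DESeq2 1.42.0, DESeq2 size factors, library totals, either no filter beyond 1 count or a minimum mean of 50, female sums of counts in place of oocytes, and omission of each female in turn (in RiboMinus MII also of each oocyte). The rule itself was varied by weight per female, a minimum of 50 CPM, a pseudocount of 5 CPM and TMM scaling. Named members were the first 20 in the order, those on a list, the 5 largest and 5 smallest cKO polyA changes, the 5 largest rises and 5 largest falls in cKO RiboMinus libraries, and 3 genes on each side of the limit and 3 at the minimum; for other genes of a list up to 4 could be named, by size of change. Genes outside these are said to have been picked after their values were seen. The fits were tested on simulated data with known changes. Of simulated log2 changes of 1, the MII against GV fit recovered 76.5% in polyA cKO, 46.9% in RiboMinus control and 11.6% in RiboMinus cKO libraries. For log2 changes of 2 it recovered 96.8%, 76% and 52.1%. 3′ ends came from GENCODE M21 transcripts, 1 per gene. Python 3.11.15 with pandas 2.3.3, numpy 2.4.6, scipy 1.17.1 and matplotlib 3.10.9 was used for tables and figures.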

Additional observations from a re-analysis of the deposited data

Results flagged for a closer look

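Among 78 groups of 4 to 10 oocytes checked for a sample far from the rest, 5 had one, and chance gives about 1 in 20. RiboMinus MII egg V1166_2 of the cKO group gave 8.12% of its gene counts to the 200 transcripts, against 3.92% to 4.52% in the other 3, and 11762 CPM to mt-Nd2, against 3421 to 4342 CPM. RiboMinus GV oocyte V1126_3 of the cKO group stood above the other 6 for Omt2b (327 CPM, next 215), Tcl1b3 (139 CPM, next 79.8) and Btg4 (1774 CPM, next 1075).

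The RiboMinus change from GV to MII was more positive in cKO than in control oocytes for 84 of the 200 (edgeR interaction term), though for 0 with counts summed per female. Of the 12 transcripts plotted by oocyte, 8 were among them, with differences in log2 change of 1.79 for Hmgn3, 1.61 for Omt2b, 1.81 for Tcl1b3, 2.04 for Tgds, 0.99 for Slbp, 1.13 for Cnot8, 2.64 for Cdc20 and 1.01 for Mad2l1.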

How the results depend on the processing

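Of 254 counts of members recomputed under an alternative, 204 stayed within 1.5 times the reported count. Shares of all genes called under the alternatives are not given here, so these counts of members stand without a background. On library totals 1 member, Gnb2 (log2 change -0.4083), was lower in polyA cKO MII against GV where 0 were reported, and 64 were higher in polyA GV3h cKO against control. With DESeq2 7 members were lower in polyA cKO GV3h against GV. With counts summed per female, 0 members were called in either direction in RiboMinus cKO MII against GV, in the RiboMinus interaction of stage and genotype and in RiboMinus GV cKO against control, 0 were lower in polyA cKO GV3h against GV, and 32 were higher and 4 lower in RiboMinus MII cKO against control. These fits have 1 to 3 females a group, and with a lone female the spread is taken from the other groups.

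Leaving out each female or oocyte in turn gave 0 to 67 members higher and 1 to 16 lower in RiboMinus cKO MII against GV. It gave 46 to 105 more positive and 0 to 3 more negative in the RiboMinus interaction. In polyA cKO GV3h against GV it gave 0 to 13 higher and 0 to 31 lower, and in RiboMinus GV cKO against control 2 to 32 higher and 2 to 92 lower. Members lower in RiboMinus MII cKO against control numbered 3 to 11: 3 without V1167 or control egg V1145_2, 4 without V1145_3, V1145_4 or V1167_2, and 11 without V1166. Sclt1 in RiboMinus cKO MII against GV ran from -0.9352 to 0.9556 and passed, upward, only without V1126. Nfkbia lost its call in the interaction without V1133 or V1145_3. The cause was not tested.

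Leaving out each female or oocyte in turn gave 189 to 196 members higher in polyA cKO MII against GV and 87 to 100 lower in RiboMinus control MII against GV. Over the other settings these counts ran from 184 (counts summed per female) to 195 and from 100 to 107 (library totals). Of the 200 members 149 (without female V889) to 186 (without V896) were chosen again when a female was left out, 157 without V856, 186 with equal weight per female, 166 at a minimum of 50 CPM, 177 with a pseudocount of 5 CPM and 196 with TMM scaling. No paired analysis was possible because the groups compared hold different females and share no animal, and oocyte numbers only name oocytes within a female.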

Other observations

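Fam124a, the second in the control order, was present or absent by female in the polyA libraries. It had 0 CPM in all 4 GV controls of female V889 and 9.21 to 17.9 CPM in the 3 of V856, 0 to 0.145 CPM in the 10 cKO GV oocytes of V888 and 18.4 to 47.6 CPM in the 5 of V857, and 0 and 0.135 CPM in the 2 MII controls of V836 against 25.8 to 72.7 CPM in the other 6. All 8 RiboMinus GV controls held 32.1 to 44.9 CPM of it. Its rise in cKO polyA libraries (2.79) has a standard error of 0.73, the widest among the first 20 genes.

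Many members share exonic bases with other genes. Exons of 57 members overlap a gene on the other strand and of 17 a gene on the same strand, 71 in all, and 7 pairs of members overlap each other, among them Tgds and Gm26773, and Pigf and Rhoq. Reads over shared bases can be dropped as ambiguous or given to 1 gene of the pair, and how the counting treated them is not given in the sources used here.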
